A study of Homo sapiens with 6 samples.

Results

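The small nucleolar RNA (snoRNA) host genes GAS5, SNHG1, SNHG3, SNHG5, SNHG6, SNHG7, SNHG8, SNHG12, SNHG15 and SNHG16 were examined in HEK293 cells given an inhibitor of phosphatidylinositol 4-kinase alpha. The members were the rows of the deposited count table whose symbol was one of these 10 names. This found 9 rows among 63140 genes. SNHG6 is listed there under its identifier, ENSG00000245910, in place of a symbol, so its values are given separately and it is not counted among the 9. HEK293 is an established human cell line from embryonic kidney. GSK-A1 inhibits this kinase, which is encoded by PI4KA and supplies the plasma membrane with phosphatidylinositol 4-phosphate. The treated group was 3 libraries from confluent HEK293 cells given GSK-A1 at 100 nM for 24 h. The control group was 3 libraries from HEK293 cells labelled DMSO, the solvent, also at 24 h. The comparison therefore rests on 1 cell line, 1 dose and 1 time, and it addresses RNA levels after GSK-A1. These counts do not measure the kinase activity itself. The labels number the libraries as biological replicates without saying how the cultures were separated, so the p-values measure the spread between these libraries.

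A snoRNA host gene carries snoRNAs inside its introns. Splicing releases the introns, exonucleases trim them to the mature snoRNA, and the snoRNA then guides 2′-O-methylation (box C/D class) or pseudouridylation (box H/ACA class) of ribosomal and other RNAs. The spliced exons of the host are left as a separate transcript with little or no coding capacity. Many of these spliced transcripts engage ribosomes, end translation early and are degraded by nonsense-mediated decay, so their level depends on both transcription and translation. Several begin with a 5′ terminal oligopyrimidine (TOP) tract, the element through which mTOR controls translation of ribosomal protein mRNAs.

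The start regions of the members are shown because the TOP tract is the feature that ties many host genes to the translation machinery. Each line gives 50 bases before to 20 bases after the annotated start, read 5′ to 3′ on the gene's strand from the RefSeq table for GRCh38.p14. Capitals mark TATAA before the start and the longest pyrimidine run, defined as C followed by at least 4 C or T, within 20 bases of the start. SNHG15 has no entry in that table.
GAS5: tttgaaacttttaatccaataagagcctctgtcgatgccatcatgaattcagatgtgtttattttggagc
SNHG1: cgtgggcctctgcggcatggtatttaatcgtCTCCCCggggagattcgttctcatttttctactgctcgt
SNHG3: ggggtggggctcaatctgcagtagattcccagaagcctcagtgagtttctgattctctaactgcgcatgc
SNHG5: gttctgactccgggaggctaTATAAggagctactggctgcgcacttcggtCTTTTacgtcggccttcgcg
SNHG7: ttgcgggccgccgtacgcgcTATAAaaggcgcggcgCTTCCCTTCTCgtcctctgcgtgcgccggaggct
SNHG8: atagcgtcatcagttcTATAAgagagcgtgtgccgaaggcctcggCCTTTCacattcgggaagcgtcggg
SNHG12: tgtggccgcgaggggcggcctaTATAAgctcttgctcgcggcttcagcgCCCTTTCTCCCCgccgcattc
SNHG16: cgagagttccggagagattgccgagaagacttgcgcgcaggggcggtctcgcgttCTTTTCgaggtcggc

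These windows lie at chr1:173869026-173869095 (minus strand, GAS5), chr11:62855866-62855935 (minus, SNHG1), chr1:28505893-28505962 (plus, SNHG3), chr6:85678714-85678783 (minus, SNHG5), chr9:136728165-136728234 (minus, SNHG7), chr4:118278712-118278781 (plus, SNHG8), chr1:28581854-28581923 (minus, SNHG12) and chr17:76557714-76557783 (plus, SNHG16). A pyrimidine run was found in 6 of the 8 windows, against 47.9% of the 35116 promoters in the table. TATAA on the gene's strand was found in 4 of 8, against 4.74% of promoters. CACGTG, a palindrome and hence the same on both strands, was found in 1 of 8 (SNHG7) over 250 bases before to 50 after the start, against 7.26% of promoters. These are matches of letters in a window, and the annotated starts differ between sources. A run near the start is not by itself a TOP tract, with which the transcript has to begin. The marked runs of SNHG1 and SNHG7 end before the annotated start, and that of SNHG16 begins after it. Those of SNHG8 and SNHG12 begin before the start and run across it. The run of SNHG5 alone begins at the annotated start. The RefSeq start of GAS5 lies 163 bases from the outermost start in GENCODE release 29, that of SNHG12 lies 1259 bases away, and the other 6 differ by 0 to 53 bases. The SNHG3 and GAS5 windows hold neither a pyrimidine run nor TATAA. Neither window reaches the outermost GENCODE start of its gene, so the absence of a run does not bear on a TOP tract at that start.

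Total counts per library ranged from 33040178 to 47777233, and each member had 340 to 12688 counts in every library. GSK-A1 replicate 2 stood farthest from its group, with a median absolute log2 difference of 0.120 from the other GSK-A1 libraries, against 0.0570 to 0.0869 for the remaining 5 libraries. Results for the members are therefore given with and without it. Of the HEK293 markers, NEFL, KRT8, KRT18, VIM and CDH2 were abundant in every library. LHX1 was well below these, PAX2 was lower still, and NEFM and INA had at most 13 and 1 counts. The HEK293 markers summed to 2137 to 2205 CPM (counts scaled to a library total of 1000000 counts) with DMSO and to 2261 to 2479 CPM with GSK-A1, mostly from VIM and NEFL. VIM and KRT8 were called higher, while PAX2, a kidney marker, was called lower (log2 fold change -0.43, edgeR adjusted p 0.0177). Markers of other cell types summed to 16.3 to 17.5 CPM with DMSO and 10.2 to 12.7 CPM with GSK-A1, nearly all from the collagen genes COL1A1 and COL3A1. COL3A1 fell by 0.81 on the log2 scale (edgeR adjusted p 3.58e-06), and COL1A1 did not pass (-0.14, adjusted p 0.396). Those that define blood, endothelial, liver and basal epithelial cells (PTPRC, CD68, PECAM1, CDH5, ALB, KRT14) had at most 8 counts in any library, and KRT5 was at 0. The part of these shifts in the results was not tested.

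Of the 9 host genes, 1 was called higher with GSK-A1 (SNHG3), 0 were called lower and 8 did not pass the test. A gene was called at a Benjamini-Hochberg adjusted p under 0.05 in edgeR's quasi-likelihood test, which called 22.9% of the 16754 genes tested, 12.0% as higher and 10.9% as lower. Of all calls 52.3% were higher, against 33.3% with upper-quartile factors, under which 4 of the 9 host genes had a positive fold change in place of 9. Without adjustment, 1 of the 9 had a p under 0.05 (SNHG3), as did 6001 of all genes tested. DESeq2 and limma-voom also called 1 higher and 0 lower. The median log2 fold change of the 9 was 0.04, beside -0.01 over all genes tested, and it ran from 0.00 (GAS5) to 0.21 (SNHG3). The share called among the host genes was thus not above the background. In bulk RNA, fewer cells holding a transcript and less of it per cell cannot be told apart.

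SNHG3 (ENSG00000242125, chr1:28505980-28510892, plus strand) hosts SNORA73A and SNORA73B, also known as U17, snoRNAs that act in ribosomal RNA cleavage. Its normalised level was 102, 95.3 and 97.7 CPM in DMSO replicates 1 to 3 and 116, 103 and 124 CPM in GSK-A1 replicates 1 to 3. All 3 GSK-A1 libraries lay above all 3 DMSO libraries, by little for replicate 2 (103 against a highest DMSO value of 102). Groups that did not overlap, with GSK-A1 higher, were found for 20.2% of all genes tested. The mean was 98.5 ± 3.5 CPM with DMSO and 114 ± 10.4 CPM with GSK-A1 (SD, n = 3 each). This was a rise of 16.0% (95% interval 6.70% to 26.2%), a log2 fold change of 0.21 ± 0.06 (SE), with an adjusted p of 0.0148 in edgeR's quasi-likelihood test. The call was lost under some other settings. The adjusted p in edgeR was 0.0798 without DMSO replicate 2 (log2 fold change 0.19), 0.0599 without DMSO replicate 3 (0.21), 0.0512 with upper-quartile factors (0.17) and 0.0996 with each library's trend on GC content removed (0.21).

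**Figure D1:**
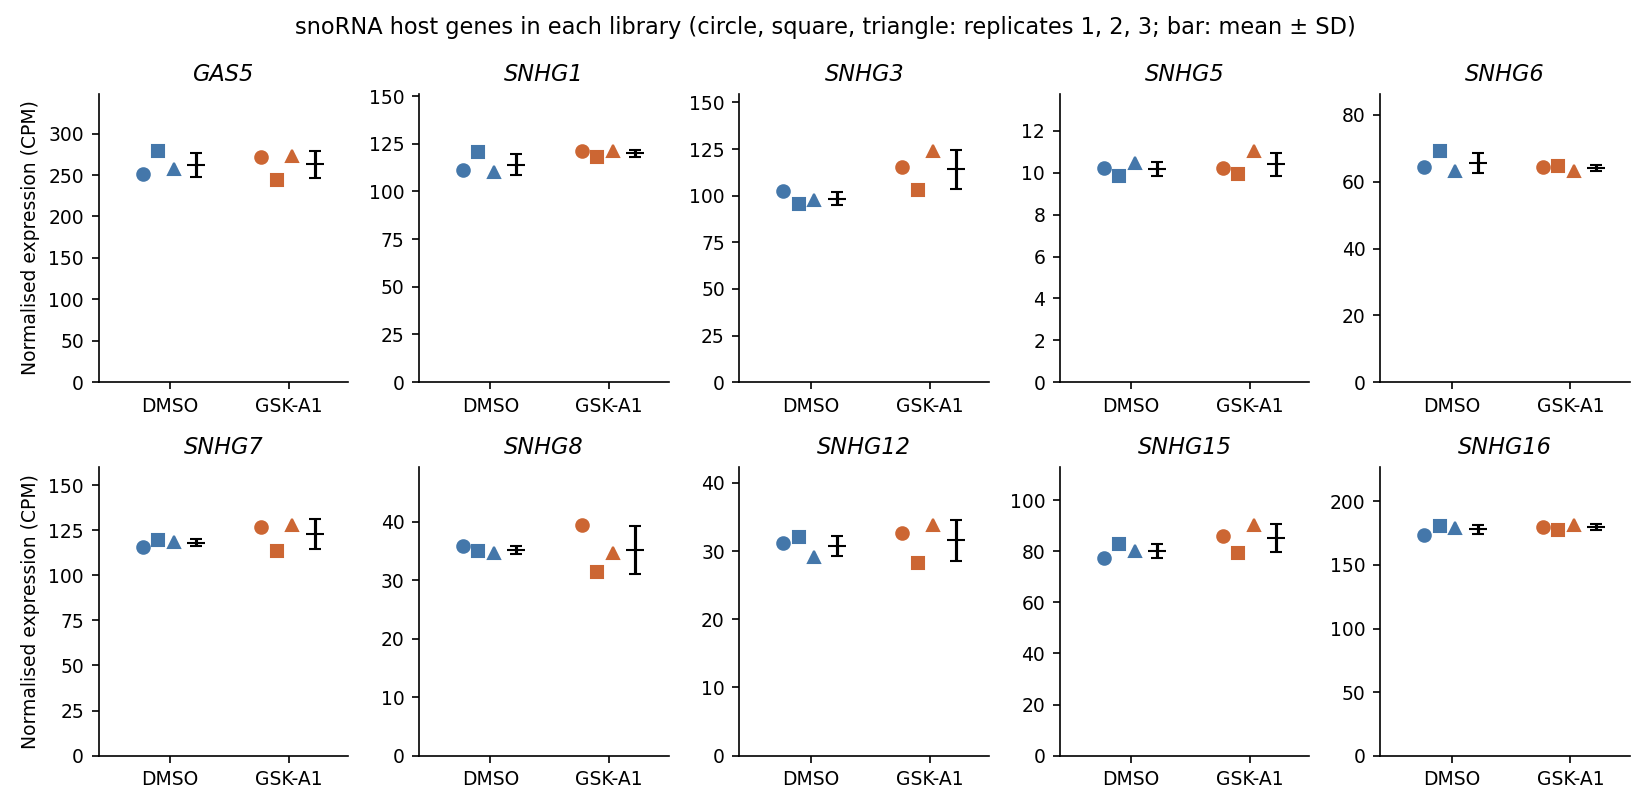
Normalised expression in CPM (vertical axis, from 0, with a scale for each gene) of the 9 host genes and SNHG6 in DMSO and GSK-A1 libraries; symbols are single libraries, and bars are mean ± SD of 3. SNHG3 has no overlap between the groups, while the other genes overlap, and the GSK-A1 square (replicate 2) is the lowest GSK-A1 point in every panel but SNHG6.

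SNHG15, SNHG1 and SNHG7 came next in the order of fold change, and none of them passed the test with all 6 libraries. SNHG15 (ENSG00000232956, chr7:44983023-44986961, minus strand), a short-lived RNA that hosts SNORA9, was at 77.4, 82.9 and 80.0 CPM with DMSO and at 86.0, 79.2 and 90.4 CPM with GSK-A1. GSK-A1 replicates 1 and 3 were above all DMSO libraries and replicate 2 was inside their range. The log2 fold change was 0.09 ± 0.05 (adjusted p 0.199, edgeR quasi-likelihood with Benjamini-Hochberg adjustment).

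SNHG1 (ENSG00000255717, chr11:62851988-62855914, minus strand) hosts a run of box C/D snoRNAs from SNORD22 to SNORD31. Its level was 111, 120.5 and 110.4 CPM with DMSO and 121, 118 and 121 CPM with GSK-A1. DMSO replicate 2 lay with the GSK-A1 libraries, while the other DMSO libraries were lower. SNHG1 had a log2 fold change of 0.07 ± 0.04, with an adjusted p of 0.216 in edgeR. SNHG7 (ENSG00000233016, chr9:136721366-136728184, minus strand), host of SNORA17A and SNORA17B, was at 116, 119.5 and 118 CPM with DMSO and at 127, 113 and 128 CPM with GSK-A1. Here GSK-A1 replicate 2 was below every DMSO library and the other GSK-A1 libraries were above them all. For SNHG7 the log2 fold change was 0.06 ± 0.05 (edgeR adjusted p 0.380).

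The other 5 host genes had fold changes close to 0. GAS5 (ENSG00000234741, chr1:173863900-173868882, minus strand) is the growth arrest-specific host of 10 box C/D snoRNAs, reported as a TOP RNA that accumulates when translation stops. The start window printed above does not show such a tract, as it does not reach the GENCODE start. It was at 252, 279 and 257 CPM with DMSO and at 272, 244 and 273 CPM with GSK-A1. The groups overlapped fully, with the highest value in DMSO replicate 2 and the lowest in GSK-A1 replicate 2. The means were 262 ± 14.4 and 263 ± 16.4 CPM (SD, n = 3 each), a difference of 0.209% whose 95% interval ran from -6.69% to 7.61% (edgeR adjusted p 0.973). The sign of the GAS5 fold change turned under 8 of the 18 other settings tried, so it has no direction.

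SNHG16 (ENSG00000163597, chr17:76557766-76565348, plus strand), host of SNORD1A, SNORD1B and SNORD1C, was at 174, 181 and 179 CPM with DMSO and at 180.2, 178 and 182 CPM with GSK-A1. Its groups overlapped, and its interval was the narrowest of the 9, from -4.03% to 6.39%. SNHG12 (ENSG00000197989, chr1:28578538-28583132, minus strand), host of SNORD99 and several box H/ACA snoRNAs, was at 31.2, 32.1 and 29.2 CPM with DMSO and at 32.7, 28.2 and 33.9 CPM with GSK-A1. The lowest SNHG12 value was again that of GSK-A1 replicate 2.

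SNHG8 (ENSG00000269893, chr4:118278709-118279823, plus strand), host of SNORA24, was at 35.8, 34.95 and 34.6 CPM with DMSO and at 39.5, 31.3 and 34.6 CPM with GSK-A1. The DMSO libraries were close together and the GSK-A1 libraries lay on both sides of them, with SDs of 0.623 and 4.10 CPM. SNHG5 (ENSG00000203875, chr6:85660950-85678748, minus strand), host of SNORD50A and SNORD50B, was the lowest of the 9 at 10.2, 9.84 and 10.5 CPM with DMSO and at 10.2, 9.95 and 11.03 CPM with GSK-A1. Its groups overlapped. The log2 fold changes and SEs were 0.02 ± 0.04 for SNHG16, 0.04 ± 0.06 for SNHG12, 0.00 ± 0.07 for SNHG8 and 0.03 ± 0.07 for SNHG5, and edgeR's adjusted p lay between 0.722 and 0.978. The 95% intervals of the 8 host genes that did not pass lay between folds of 0.907 and 1.14.

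SNHG6 (ENSG00000245910), host of SNORD87, was the single listed gene with a negative fold change. It was at 64.5, 69.1 and 63.2 CPM with DMSO and at 64.3, 64.8 and 63.2 CPM with GSK-A1, with overlapping groups. The log2 fold change was -0.04 ± 0.04 (edgeR adjusted p 0.606), and without DMSO replicate 2 it was 0.00.

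**Figure D2:**
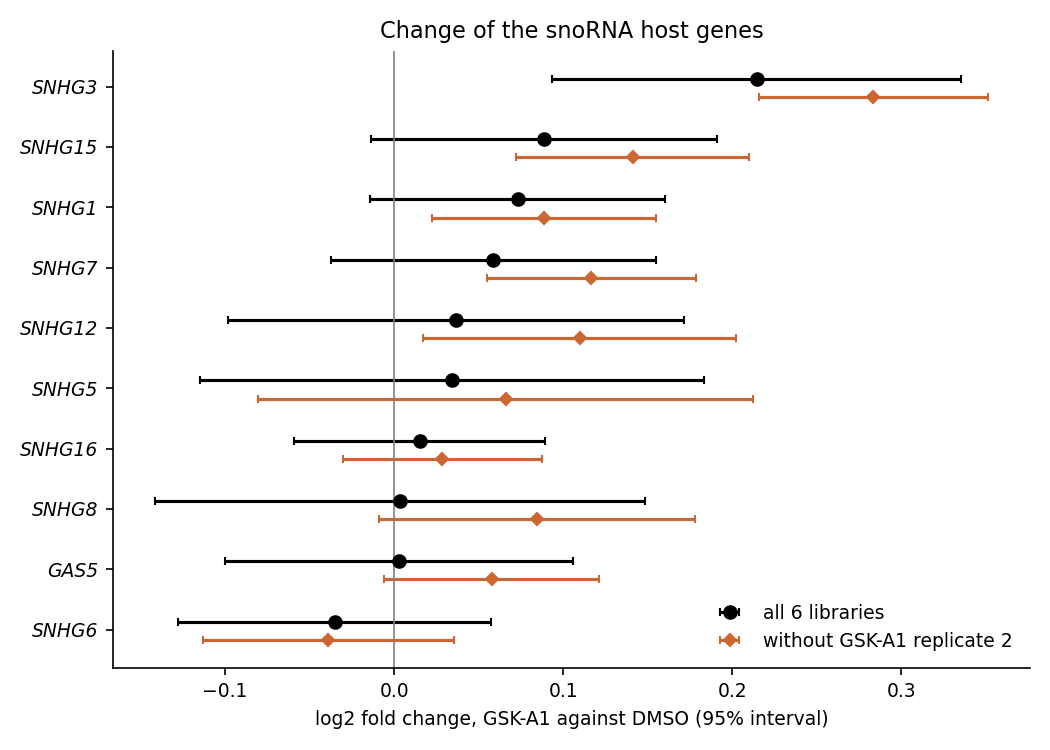
Log2 fold change of GSK-A1 against DMSO (horizontal axis) with its 95% interval from edgeR for each host gene and SNHG6, with all 6 libraries (black circles) and without GSK-A1 replicate 2 (orange diamonds). The black interval excludes 0 for SNHG3 alone, and the orange points of SNHG3, SNHG15, SNHG1, SNHG7 and SNHG12 lie to the right of 0 with their intervals; SNHG12 did not pass the adjusted threshold.

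GSK-A1 replicate 2 was the lowest of the GSK-A1 libraries for 9 of the 9 host genes; over all genes tested it was the lowest for 40.6% and the highest for 40.7%. It lay 10.4% below the mean of the other GSK-A1 libraries in the median host gene, from 1.88% below for SNHG16 to 15.4% below for SNHG8. Relative to the DMSO mean of each gene, 9 host genes were higher in GSK-A1 replicate 1, 8 in replicate 3 and 2 (SNHG1 and SNHG3) in replicate 2. The median log2 deviation in these libraries was 0.09, 0.12 and -0.03. In the DMSO libraries the host genes were split, with 4, 6 and 3 of the 9 above their mean and median deviations of -0.03, 0.02 and -0.01. The summed level of the 9 host genes was 909, 955 and 917 CPM with DMSO and 984, 905 and 997 CPM with GSK-A1. The sums of the groups overlapped through GSK-A1 replicate 2, which had the lowest sum of all. What sets that library apart was not tested.

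**Figure D3:**
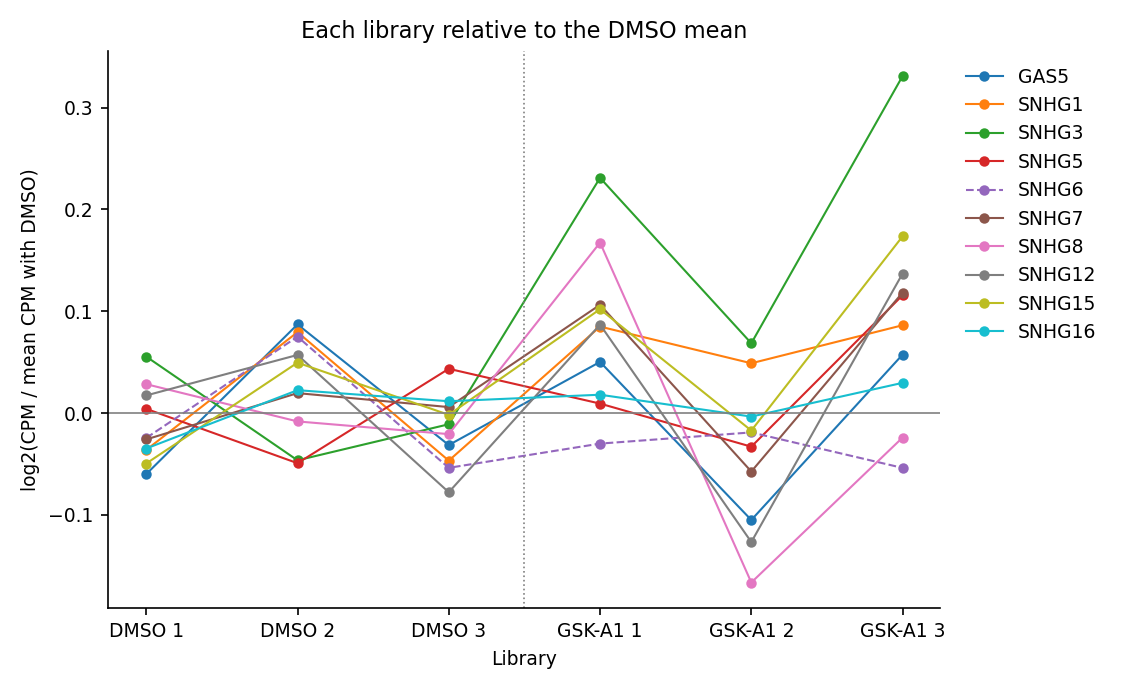
Log2 ratio of each library's CPM to the gene's mean with DMSO (vertical axis) for each of the 6 libraries (horizontal axis); each line joins the points of 1 gene to guide the eye, the dashed line is SNHG6, and the dotted line parts DMSO from GSK-A1. GSK-A1 replicates 1 and 3 lie mostly above 0 and SNHG3 is highest in both, while 7 of the 9 host genes lie below 0 in GSK-A1 replicate 2.

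Without GSK-A1 replicate 2, edgeR called 4 of the 9 host genes higher and 0 lower, beside 15.2% and 12.9% of 17399 genes tested (28.1% in either direction). That library was the lowest of its group for all 9, so leaving it out raises their GSK-A1 means by construction. SNHG3 rose by 21.7% in that fit, SNHG15 by 10.3%, SNHG7 by 8.43% and SNHG1 by 6.34%. The adjusted p-values in edgeR were 2.92e-09, 0.00114, 0.00264 and 0.0378. SNHG12 was at 7.91% (0.0684), SNHG8 at 6.03% (0.177), GAS5 at 4.08% (0.177), SNHG5 at 4.67% (0.547) and SNHG16 at 1.99% (0.518), and none of these passed. SNHG3 was thus the 1 host gene called both with and without that library. SNHG7 was also called with the GC trend removed (0.13 on the log2 scale, adjusted p 0.00418 in edgeR), a setting chosen after seeing the data, in which SNHG3 was not.

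Levels between host genes were compared in CPM per kilobase of the exons annotated in GENCODE release 29. With DMSO the order was GAS5 at 72.3 ± 4.0, SNHG6 at 52.6 ± 2.5, SNHG8 at 38.1 ± 0.7, SNHG16 at 33.2 ± 0.7 and SNHG1 at 30.4 ± 1.5 CPM per kilobase (SD, n = 3). Below them were SNHG7 at 27.1 ± 0.4, SNHG3 at 24.1 ± 0.9, SNHG15 at 22.0 ± 0.8, SNHG12 at 7.22 ± 0.34 and SNHG5 at 3.63 ± 0.12 CPM per kilobase. No gene's 3 DMSO values overlapped those of the next gene in this order. The order depends on which exons count, since 19 of 29 GAS5 transcripts, 13 of 25 SNHG1 transcripts and 10 of 17 SNHG12 transcripts are annotated as retaining an intron. With the retained introns left out of the length, GAS5 remained first, SNHG1 moved from the fifth place to the second, and SNHG12 and SNHG5 remained last.

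The snoRNAs inside these hosts could be read from few rows. Of 35 snoRNA names listed for the 10 hosts, 21 had a row by symbol and 18 of those were at 0 in all 6 libraries. In GENCODE release 29, 17 of the 18 rows at 0 lie wholly under annotated exons of their host and 1 lies partly under them. The 3 rows with counts, SNORA73B, SNORD99 and SNORD1B, lie under no host exon. How the authors' counting treated reads that lie in 2 genes is not given in the sources used here, so the rows at 0 give no level of the snoRNA. Over all snoRNA rows of the table, 89.2% of the 212 under same-strand exons of another gene were at 0, against 77.1% of the 778 under none. None of the 10 snoRNAs listed for GAS5 had a row by symbol.

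The 3 snoRNAs with counts are shown because they are the only hosted snoRNA rows found by symbol that had counts. Listed snoRNAs without a row by symbol were not matched by identifier, so whether they had counts is not known here. A library kit for long RNA may capture short snoRNAs poorly. The 3 rows lie inside their host genes, so reads of unspliced host RNA and of the mature snoRNA cannot be told apart. The sequences are those of the GENCODE release 29 transcripts (GRCh38), 5′ to 3′. Capitals mark GATGA of box C and CTGA of box D in the box C/D snoRNAs, and the ACA box, which lies 3 bases before the end, in SNORA73B.
SNORD99: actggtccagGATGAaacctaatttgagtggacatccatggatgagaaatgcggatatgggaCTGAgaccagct
SNORD1B: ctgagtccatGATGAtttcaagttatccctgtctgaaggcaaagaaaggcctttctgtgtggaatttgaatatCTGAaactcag
SNORA73B: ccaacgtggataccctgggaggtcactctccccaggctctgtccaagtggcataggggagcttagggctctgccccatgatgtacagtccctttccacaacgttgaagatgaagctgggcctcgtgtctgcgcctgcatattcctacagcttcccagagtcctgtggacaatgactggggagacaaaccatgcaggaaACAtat

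SNORD99, in SNHG12, had 30, 25 and 12 counts with DMSO and 38, 18 and 31 with GSK-A1. SNORA73B, in SNHG3, had 20, 14 and 9 counts with DMSO and 30, 11 and 13 with GSK-A1. SNORD1B, in SNHG16, had 3, 5 and 0 counts with DMSO and 1, 0 and 4 with GSK-A1. The groups overlapped for each of them, and SNORD1B was too low to be tested. The log2 fold change was 0.49 ± 0.26 for SNORD99 (edgeR adjusted p 0.181) and 0.44 ± 0.33 for SNORA73B (0.357). At 154 and 97 counts over 6 libraries, the 95% intervals ran from a fold of 0.964 to 2.06 for SNORD99 and from 0.842 to 2.20 for SNORA73B. SNORD99 passed without GSK-A1 replicate 2 (0.66 on the log2 scale, edgeR adjusted p 0.0497). A change of the size seen in the SNHG3 host transcript was therefore not detectable at this depth.

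Several members share bases with another gene, and the strand setting of the authors' counting is not given in the sources used here, so reads of antisense partners may not be told apart. SNHG3 shares 242 bases (5.92% of its exons) on the same strand with RCC1, which encodes the Ran guanine nucleotide exchange factor. RCC1 was at 180 ± 4.8 CPM with DMSO and 183 ± 7.8 CPM with GSK-A1, and its groups overlapped (log2 fold change 0.03 ± 0.04, edgeR adjusted p 0.660; the sign turned with upper-quartile factors). SNHG7 shares 1094 bases (25.2%) with DIPK1B on the other strand, which was at 186 ± 6.1 and 177 ± 11.1 CPM (-0.07 ± 0.04, adjusted p 0.277; the sign turned with the GC trend removed). SNHG12 shares 8 bases (0.188%) with the antisense gene TRNAU1AP, a factor of selenoprotein synthesis, at 20.7 and 21.8 CPM (0.08 ± 0.07 on the log2 scale, adjusted p 0.445). GAS5 shares 42 bases (1.16%) with GAS5-AS1, at 0.777 and 0.928 CPM (0.24 ± 0.21 on the log2 scale, adjusted p 0.442). SNHG16 and SNHG6 overlap on the other strand, over 30.6% and 29.3% of their exons, LOC122455342 and MCMDC2, both too low to be tested. No overlapping gene that was tested passed the test with all 6 libraries. TRNAU1AP was called without GSK-A1 replicate 2 (0.15 on the log2 scale, adjusted p 0.0284 in edgeR).

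Of the 19 tested genes that lie next to a member, 3 were called higher, beside 12.0% of all genes tested. CCM2, a scaffold protein of endothelial and other cells, lies 12514 bases from SNHG15 on the other strand and rose from 52.0 ± 1.0 to 58.7 ± 2.9 CPM, by 0.18 ± 0.05 on the log2 scale (adjusted p 0.0106 in edgeR). The CCM2 call was lost in edgeR without DMSO replicate 2 or 3 or GSK-A1 replicate 1 (adjusted p 0.0613 to 0.0620). The low gene ENSG00000279443, between SNHG3 and SNHG12, rose from 1.72 to 2.28 CPM, by 0.43 on the log2 scale (adjusted p 0.0425 in edgeR), but not in DESeq2 (adjusted p 0.131) or limma-voom (0.0556). In edgeR the call was also lost with upper-quartile factors (adjusted p 0.0644), with the replicate block (0.0516), and without any 1 of the DMSO libraries or GSK-A1 replicate 1 (0.0821 to 0.212). CGA, which encodes the alpha subunit of glycoprotein hormones, lies 1406750 bases away from SNHG5 and rose from 0.429 to 1.12 CPM, by 1.40 on the log2 scale (adjusted p 3.53e-04 in edgeR). The 4 neighbours nearest to a member did not pass with all 6 libraries. SLC3A2, the heavy chain of several amino acid transporters, lies 188 bases from SNHG1 in the opposite direction, at 124 ± 0.3 CPM with DMSO and 133 ± 4.1 CPM with GSK-A1. Its groups did not overlap, and its log2 fold change of 0.09 had an adjusted p of 0.0835 in edgeR, or 0.00755 without GSK-A1 replicate 2. With the GC trend removed SLC3A2 was called as well (0.14 on the log2 scale, adjusted p 0.00314 in edgeR). PRSS12 lies 215 bases from SNHG8, at 47.6 and 50.3 CPM (0.08 on the log2 scale, adjusted p 0.188 in edgeR). ENSG00000267546 and ST6GALNAC2, 83 and 31 bases from SNHG16, were below 1 CPM in every library. The neighbours RC3H1, WDR74, PHACTR4, SYNCRIP, SGK3, TCF24, AGPAT2, LCN15, NDST3, TAF12 and ENSG00000272768 did not pass either.

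Other noncoding snoRNA hosts were set beside the members. Of 17 tested of 22 listed, 1 was called higher and 3 lower (23.5% called). The list median was a log2 fold change of -0.07. SNHG19 was at 16.0, 17.4 and 15.2 CPM with DMSO and 12.97, 11.9 and 14.4 CPM with GSK-A1 and fell by 0.31 on the log2 scale (SE 0.07, edgeR adjusted p 0.00702). SNHG4 fell from 41.9 ± 2.5 to 35.9 ± 2.3 CPM (-0.23, adjusted p 0.00902) and SNHG17 from 36.9 ± 0.6 to 32.9 ± 0.9 CPM (-0.16, adjusted p 0.0208). EPB41L4A-AS1 rose from 42.8 ± 1.4 to 47.8 ± 2.0 CPM (0.16, adjusted p 0.0217). In these 4 the groups did not overlap, as in 40.5% of all genes tested (either direction), but each call rested on single libraries. In edgeR SNHG19 lost its call without DMSO replicate 2 (adjusted p 0.0621), and SNHG4 without DMSO replicate 1 or GSK-A1 replicate 1 (0.0753 and 0.0516). SNHG17 lost it without any 1 of the DMSO libraries (0.0544 to 0.0884), and EPB41L4A-AS1 without DMSO replicate 1 or 3 or GSK-A1 replicate 3 (0.0775 to 0.115).

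Protein-coding hosts carry snoRNAs in the introns of genes for ribosomal proteins and translation or transport factors. Of 38 tested, 3 were called higher and 6 lower (23.7%). The list median was a log2 fold change of -0.03. RPL13A, a protein of the large ribosomal subunit, fell from 3456 ± 31.8 to 3141 ± 105.6 CPM (-0.14, edgeR adjusted p 0.00368). IPO7, a nuclear import receptor, rose from 403 ± 3.0 to 449 ± 21.1 CPM (0.16, adjusted p 0.00629), and TAF1D, a subunit of the RNA polymerase I factor SL1, from 74.2 ± 3.3 to 84.0 ± 3.3 CPM (0.18, adjusted p 0.00950). RPL17, another large-subunit protein, rose from 46.7 ± 0.8 to 52.3 ± 1.2 CPM (0.16, adjusted p 0.0121). It was the lowest of the listed ribosomal protein hosts, the next being RPS20 at 440 CPM with DMSO. Whether its row holds all RPL17 reads was not tested. With the GC trend removed, IPO7 and TAF1D were no longer called in edgeR (adjusted p 0.0595 and 0.0832). Without DMSO replicate 1, TAF1D and RPL17 lost the call (adjusted p 0.0755 and 0.0514 in edgeR), and RPL17 also did without DMSO replicate 3 (0.0736).

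**Figure D4:**
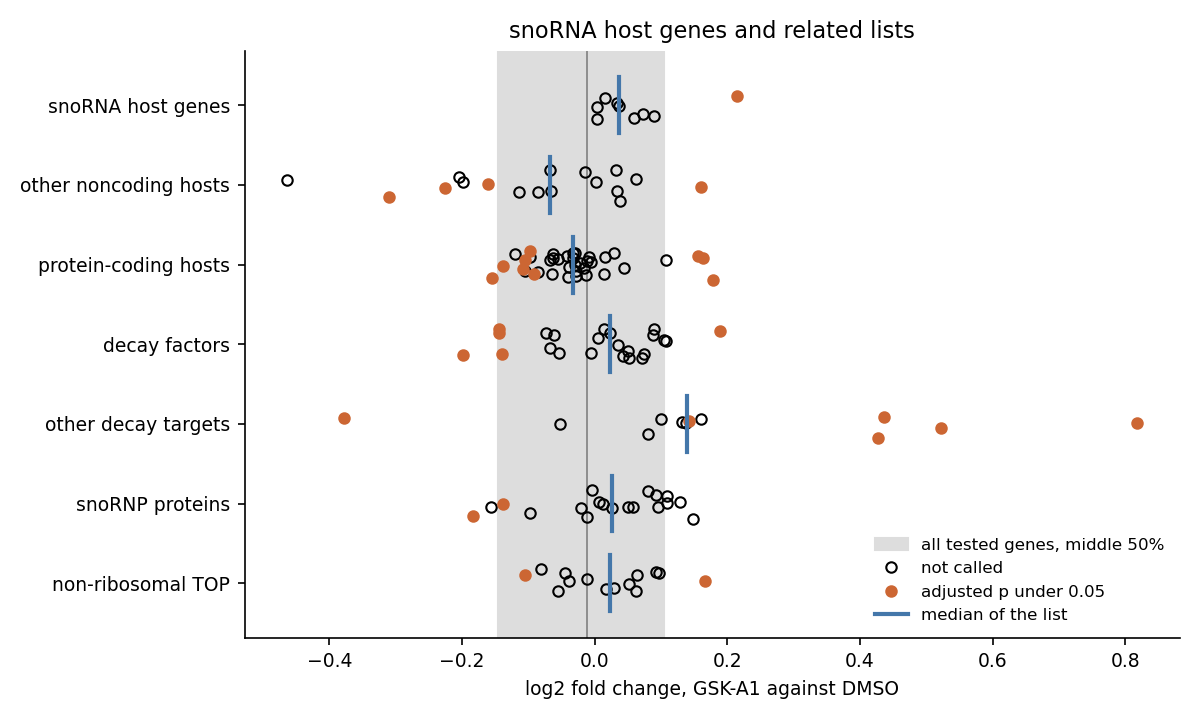
Log2 fold change of GSK-A1 against DMSO (horizontal axis) for every tested gene of 7 lists, with filled points for genes called by edgeR, blue bars for list medians, and the middle 50% of all tested genes shaded around their median. The 9 host genes cluster near the median of all genes with SNHG3 to the right, and the other decay targets reach farthest to the right with ATF3 at 0.82.

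Because many host transcripts are substrates of nonsense-mediated decay, the factors of that pathway and other mRNAs reported as its targets were read in the same fit. Among 23 factors tested, 1 was called higher and 4 lower (21.7%). The list median was a log2 fold change of 0.02. GSPT1, the translation release factor eRF3a, rose from 226 ± 5.5 to 258 ± 11.1 CPM (0.19, edgeR adjusted p 0.00238). EIF4A3, the helicase at the core of the exon junction complex, fell from 129 ± 2.7 to 117 ± 2.9 CPM (-0.14, adjusted p 0.0144), and MAGOHB, a partner of the same complex, from 25.1 ± 0.9 to 21.9 ± 1.6 CPM (-0.20, adjusted p 0.0237). SMG6, the endonuclease of the pathway, fell from 64.1 ± 1.1 to 58.0 ± 1.7 CPM (-0.14, adjusted p 0.0208). RBM8A was also called lower. The calls of SMG6, MAGOHB and RBM8A were lost in edgeR without any 1 of the libraries other than GSK-A1 replicate 2 (adjusted p up to 0.0983, 0.126 and 0.125). The EIF4A3 call was lost without DMSO replicate 1 or 3 or GSK-A1 replicate 3 (0.0609 to 0.0775).

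Of the 12 other mRNAs reported as decay targets, 5 were called higher and 1 lower (50%). The list median was a log2 fold change of 0.14. ATF3, a stress-induced transcription factor, was at 87.8, 90.4 and 91.0 CPM with DMSO and 156, 165 and 153 CPM with GSK-A1. All GSK-A1 libraries were far above the DMSO libraries, and the log2 fold change was 0.82 ± 0.04 (edgeR adjusted p 4.69e-10). UPP1, uridine phosphorylase, rose from 14.1 ± 0.5 to 19.0 ± 0.8 CPM (0.44, adjusted p 1.09e-04), and GADD45A, a growth arrest and DNA damage gene, from 36.1 ± 1.6 to 48.7 ± 4.1 CPM (0.43, adjusted p 1.11e-04). BAG1, a co-chaperone of HSP70, fell from 30.8 ± 1.7 to 23.7 ± 0.6 CPM (-0.38, adjusted p 1.58e-04). GADD45B and ATF4 were also called higher. ATF3, ATF4, GADD45A and GADD45B are also known as stress-response genes. Whether the host genes and these mRNAs differ in response was not tested.

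The proteins that build snoRNA particles were mostly not called. Of 19 tested, 0 were called higher and 2 lower (10.5%) by edgeR. At an unadjusted p under 0.05, 5 were higher and 3 lower. DESeq2 and limma-voom also called 0 higher, while 1 was called higher with no filter on low counts, 2 with the replicate block, 2 with the GC trend removed, and 2 or 4 when GSK-A1 replicate 3 or 2 was left out. The list median was a log2 fold change of 0.03. NOPCHAP1, an assembly chaperone of box C/D particles, fell from 24.4 ± 0.7 to 21.5 ± 0.7 CPM (-0.18, edgeR adjusted p 0.0217). PIH1D1, a subunit of the R2TP chaperone complex, fell from 89.1 ± 2.7 to 80.9 ± 4.7 CPM (-0.14, adjusted p 0.0395). Both calls were lost in edgeR without DMSO replicate 2 or 3 or GSK-A1 replicate 1 (adjusted p 0.0945 to 0.0997 and 0.0737 to 0.103). PIH1D1 also lost it without DMSO replicate 1 (0.185) and did not pass in DESeq2 (adjusted p 0.0536). Of 14 tested TOP mRNAs that encode no ribosomal protein, 1 was called higher and 1 lower (14.3%). The list median was a log2 fold change of 0.02. VIM, vimentin, rose from 1084 ± 33.1 to 1216 ± 57.8 CPM (0.17, edgeR adjusted p 0.00423). EEF1B2, an elongation factor subunit and itself a snoRNA host, fell from 525 ± 5.2 to 488 ± 7.0 CPM (-0.10, adjusted p 0.0245), a call lost without any 1 of the libraries other than GSK-A1 replicate 2 (edgeR adjusted p 0.0680 to 0.0946).

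The genes whose levels followed SNHG3 and SNHG15 most closely were ranked by the root mean square difference of centred log2 CPM over the 6 libraries, among 9814 genes. For SNHG3 they were STK19, MAPRE3 and GTPBP2, at 0.03 each on the log2 scale against a median of 0.15 over genes. GTPBP2, a GTP-binding protein of ribosome rescue, was at 138, 132 and 139 CPM with DMSO and 169, 144 and 173 CPM with GSK-A1. As in SNHG3, its GSK-A1 replicate 2 was the nearest of that group to the DMSO libraries. This likeness is what the ranking over the same 6 libraries selects for. SNHG15 was followed most closely by SPAG7, GFPT2 and ZNF805, at 0.01, 0.02 and 0.03 against a median of 0.11. SPAG7 was at 40.5, 43.8 and 41.8 CPM with DMSO and 44.6, 40.7 and 46.4 CPM with GSK-A1, with overlapping groups.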

How the data were processed

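The deposited values are unnormalized read counts per gene, 1 column for each library, per the file headers and the values themselves. The submitters' processing notes name cutadapt 5.1, STAR 2.7.11b, featureCounts (Subread 2.1.1), DESeq2 1.38.0 and GRCh38.p13. Their settings, the annotation release and the strand setting are not given in the sources used here. RNA was made into libraries with a stranded TruSeq kit, per the labels' protocols. All 6 libraries have 1 lane label in common, so the labels give no batch.

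Counts were analysed with edgeR 4.0.16 in R 4.3.3: filterByExpr (smallest count 10, smallest total 15; 16754 genes kept), TMM factors, and a robust quasi-likelihood test (legacy off), with Benjamini-Hochberg adjustment over the 16754 genes. SEs were taken as the size of the log2 coefficient over the square root of its F value. CPM are counts scaled to a TMM-adjusted total of 1000000 counts. Depth limits precision to what the counts allow, and the errors given come from replicates. The code was tested on simulated data. It recovered 69.4% of genes changed by 0.5 on the log2 scale and 87.8% of those changed by 1, and 6.10% of its calls were false. The largest member change, 0.21 (SNHG3), is below both sizes, so recovery of such changes was not tested. Alternatives used RLE, upper-quartile and total-count factors, other filters, DESeq2 1.42.0, limma-voom (limma 3.58.1), a replicate block, a threshold of 0.01, each library left out in turn and a GC correction added after seeing the data.

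The members, and the lists of other noncoding hosts, coding hosts, decay factors, decay targets, snoRNA particle proteins, TOP mRNAs and cell markers, were chosen with earlier results of these data known. Genes were named by rule. The rule took all members, hosted snoRNA rows with a mean of at least 10 counts, up to 4 called genes with the smallest p in each list, tested genes overlapping or next to a member, and the 3 nearest profiles of the 2 members with the smallest p. SNORD1B, RBM8A, GADD45B and ATF4 fall outside it and were named after their values were seen. Of the other noncoding hosts, 7 were matched by identifier. Sequences came from RefSeq (GRCh38.p14) and GENCODE release 29. The result of 1 neighbouring gene is not reported here.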

Additional observations from a re-analysis of the deposited data

How the results depend on the processing

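Of the 9 host genes, 0 were called higher with upper-quartile factors and 0 at an adjusted p under 0.01. Leaving out 1 library in turn gave 0 to 4 called higher (4 without GSK-A1 replicate 2, 0 without DMSO replicate 2 or 3), with a median log2 fold change of 0.0213 to 0.0886; 0 were called lower under every setting. SNHG3 kept its call under 13 of 18 settings, its log2 fold change ranging from 0.16 to 0.28, and SNHG1, SNHG7 and SNHG15 stayed positive in all 18. The sign turned with upper-quartile factors for GAS5 (-0.0376), SNHG5 (-0.00597), SNHG8 (-0.0367), SNHG12 (-0.00358), SNHG16 (-0.0258) and RCC1 (-0.0132). It turned for GAS5 and SNHG8 with library totals only (-0.00510 and -0.00480) and with a mean of at least 1 CPM (-0.00405 and -0.00364), and with the GC trend removed for GAS5 (-0.0314) and DIPK1B (0.00752). Leave-one-out values ran from -0.0269 to 0.0577 for GAS5, from -0.00319 to 0.0659 for SNHG5, from -0.0593 to 0.00367 for SNHG6, from -0.0862 to 0.0845 for SNHG8, from -0.00927 to 0.110 for SNHG12 and from -0.00278 to 0.0284 for SNHG16. The cause was not tested, except that a stricter threshold leaves fewer calls by construction. Over all genes tested the median log2 fold change was -0.0109 as reported and -0.0513 with upper-quartile factors, so that shift was not particular to these genes. All genes called numbered 3833 (52.3% higher), 4027 with upper-quartile factors (33.3% higher), 3097 in DESeq2, 1870 at 0.01 and 2163 to 4890 with 1 library left out.

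Counts per list also moved. With upper-quartile factors 14 coding hosts, 6 other noncoding hosts and 3 TOP mRNAs were lower, against 6, 3 and 1. With the GC trend removed 1 coding host, 2 decay factors, 8 decay targets, 2 particle proteins and 2 TOP mRNAs were higher, against 3, 1, 5, 0 and 1. Leaving out 1 library gave 1 to 3 other noncoding hosts lower, 1 to 6 coding hosts lower, 0 to 5 decay factors lower, 1 to 4 higher, 5 to 10 decay targets higher, 0 to 4 particle proteins higher and 0 to 3 lower. Of the neighbouring genes, 1 was called higher in DESeq2 and 1 at an adjusted p under 0.01, against 3, and 1 to 4 with 1 library left out. DESeq2 gave no adjusted p for CGA, which is left out there.

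The labels share replicate numbers, and the same-numbered libraries of the groups correlated by 0.0109, 0.0190 and 0.0323 in their deviations. Libraries with different numbers correlated by -0.0331 to 0.0117. All of these values are small, and they cannot decide whether the cultures were paired. GSK-A1 replicate 1 correlated best with DMSO replicate 2 (0.0117), and the other 5 libraries with their own number. A fit with the replicate block called 4128 genes, kept the SNHG3 call and turned the sign of SNHG8 (-0.00284). With it 2 particle proteins were called higher, against 0, 2 TOP mRNAs, against 1, and ENSG00000279443 lost its call (adjusted p 0.0516).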
